A study of Mus musculus with 2 samples.

Results

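The p53 gene, 4 genes of its pathway, 4 further inhibitors of the G1 phase of the cell cycle and cyclin D1 were followed in primary mouse preadipocyte cultures: Trp53, Mdm2, Cdkn1a, Ccng1, Trp53inp1, Cdkn1b, Cdkn2a, Cdkn2b, Cdkn2c and Ccnd1. They were listed by name, with earlier results of these data known. All 10 were present in both count tables, among 28651 genes listed for inguinal white adipose tissue (iWAT), 29958 for interscapular brown adipose tissue (iBAT) and 27995 shared by both. The cells were stromal vascular cells of wild-type C57BL/6N mice aged 8 to 12 weeks per the labels, from tissue pooled within a depot and grown to 80% confluency. Each depot gave 1 single-cell library, which merged untreated cells with cells given FGF1, FGF2 or FGF8 (5.5 nM, 48 h in each case), with 10000 cells of each loaded. The published methods name vehicle, FGF1 and FGF2 only, and the difference was not resolved here. The tag that marks the treatment of a cell was not used here, so every value describes a mixture of the 4 treatments and none speaks of an FGF. With 1 library per depot no test was possible, and intervals (95%, exact) cover counting error only. Depot, library, depth and the sex of the animals cannot be told apart.

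The transcription factor p53, encoded by Trp53, is held at a low level in unstressed cells by Mdm2, a ubiquitin ligase that marks it for degradation. When DNA damage or another stress frees p53, it activates genes that stop the cell cycle, among them Cdkn1a, which encodes the inhibitor p21. It also activates Mdm2 itself, which closes a feedback loop. Ccng1 (cyclin G1) and Trp53inp1 (a stress-induced nuclear protein) are further p53 targets. Cyclin D1 (Ccnd1) joins CDK4 or CDK6 to carry a cell through G1 and is made in response to growth factors, of which FGFs are a family. The INK4 inhibitors p16 and p15 (from Cdkn2a and Cdkn2b, neighbours in the genome) and p18 (Cdkn2c) block CDK4 and CDK6, while p21 and p27 (Cdkn1b) act on CDK2 complexes. In adipose tissue, p21 and p27 are known to restrain the number of adipocytes, and p16 and p19Arf, both encoded by Cdkn2a, are known to accumulate in cultured and ageing cells.

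The iWAT library held 29962 cell barcodes and 503611913 unique molecular identifiers (UMIs, 1 per captured RNA molecule), and the iBAT library 28636 and 815235820. They shared 8 barcodes. Cells with more than 200 and fewer than 7500 genes and under 30% mitochondrial UMIs were kept, which left 29744 iWAT and 28215 iBAT cells with medians of 16204 and 27235 UMIs. Xist, transcribed from the inactive X chromosome, stood at 345 CPM (UMIs of a gene per 1000000 UMIs of the cells) in iWAT and 0.0505 in iBAT, and the Y-linked Ddx3y at 1.20 and 81.9. Cells were sorted into classes by markers listed for each cell type. The stromal-like class, defined by mesenchymal genes such as Pdgfra and Col1a1, held 23699 iWAT cells (79.7%) and 24758 iBAT cells (87.7%). All 10 of its markers were detected in each library, but the class was gated on them, so this is no separate support. Epithelial-like cells reached the size of a class in iWAT alone (3933 cells, 13.2%). Small classes were immune-like (132 and 179 cells) and Schwann-like (46 and 390 cells) in both libraries, and endothelial-like (162), skeletal muscle-like (205) and adipocyte-like (113) in iBAT. The Schwann-like class also carried stromal markers, at a summed 15822 CPM in iWAT and 14304 in iBAT against 29048 and 13749 in stromal-like cells.

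On the GRCm39 assembly with GENCODE M39 annotation, Trp53 spans chr11:69469669-69482701 on the plus strand with 11 exons in its main transcript, and Mdm2 chr10:117524780-117546730 on the minus strand with 12. Cdkn1a lies at chr17:29309936-29319701 (plus) and Ccng1 at chr11:40639377-40646148 (minus). Trp53inp1 lies at chr4:11156412-11175230 (plus), Cdkn1b at chr6:134897364-134902476 (plus) and Ccnd1 at chr7:144483668-144493662 (minus). Cdkn2a (chr4:89192708-89212890) and Cdkn2b (chr4:89223204-89229276) are neighbours on the minus strand, and Cdkn2c (chr4:109517957-109524386) lies farther along the same chromosome. The transcripts for p16 and p19Arf share their 3′ exons, so the Cdkn2a count does not separate them. Of the members 4 overlap a gene of the other strand at their 3′ end, and whether counting used strand is not stated in the sources used here. The partners counted in iWAT and iBAT stromal-like cells were LTO1 for Ccnd1 (7.23 and 9.41 CPM), Gm44238 for Cdkn1b (0.0426 and 0.0611), Gm12610 for Cdkn2b (4.03 and 5.08) and Nudcd2 for Ccng1 (99.8 and 99.4).

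To show what p53 could read at these genes, the 3000 bases on either side of 1 start site per gene, that of its canonical transcript, were searched on both strands for the 20-base p53 consensus, made of 2 abutting decamers. The closest matches, with 19 of 20 bases, are printed 5′ to 3′ in the orientation of the gene. Capitals mark bases that match the consensus and a lower-case letter the base that does not.
Cdkn1a: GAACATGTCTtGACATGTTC
Mdm2: GGGCAAtTCCGGGCAAGTCC
Ccng1, upstream: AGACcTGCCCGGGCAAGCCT
Ccng1, intron: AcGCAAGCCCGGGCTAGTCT
Cdkn2b: AGACATGTCCGGtCTTGCTC
They are shown because they are the matches to members with at most 1 mismatch. The Cdkn1a match lies at chr17:29309902-29309921, -2836 from the canonical start site (29312738), and just before the first base of the whole annotated gene (29309936), where a longer transcript begins. The Mdm2 match lies at chr10:117547575-117547594, -931 from the start site (117546663), upstream as well. Starts other than the canonical one, among them the outermost start of Cdkn2a, were not searched separately. The Ccng1 matches lie at chr11:40646289-40646308 (-170, upstream) and chr11:40645763-40645782 (356 bases into the gene, in an intron). The Cdkn2b match lies in an intron at chr4:89226637-89226656, 2620 bases from its start site. Of the 10 members 4 had such a match, against 5 of 41 other known p53 targets and regulators and 370 of 21770 protein-coding genes (1.70%). The best match of Trp53, Trp53inp1, Cdkn1b, Cdkn2a, Cdkn2c and Ccnd1 had 17 of 20 bases, and 79.5% of protein-coding genes held 1 at least as close. A match describes letters in a window and is not a bound site. Decamers set apart by other bases were not searched, so the lack of a close match does not show that a site is absent.

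Levels, in CPM of the class, varied among the cell classes, and Cdkn1a and Ccnd1 each had a class several-fold above stromal-like cells. In stromal-like cells Trp53 stood at 129 CPM in iWAT (128 to 130) and 153 in iBAT (153 to 154). Its highest level was in iBAT endothelial-like cells, at 276 (259 to 293), and its lowest in the immune-like cells of iBAT, at 91.4 (82.4 to 101), and of iWAT, at 93.4 (78.7 to 110). Those immune-like intervals overlap each other and that of skeletal muscle-like cells, at 97.8 (88.5 to 108). Mdm2, the ligase that limits p53, stood at 148 in iWAT and 124 in iBAT stromal-like cells. Schwann-like cells had the lowest Mdm2 levels, 59.0 (38.2 to 87.2) in iWAT and 72.7 (66.2 to 79.8) in iBAT, with intervals that reach into that of iBAT adipocyte-like cells (74.3 to 95.2).

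Cdkn1a, the p21 gene, stood at 353 CPM in iWAT stromal-like cells (351 to 355) and 306 in iBAT (305 to 307). Skeletal muscle-like cells of iBAT carried 2366 (2319 to 2414), 7.73-fold the stromal-like level, and endothelial-like cells 792 (763 to 821). In the rest of the classes Cdkn1a lay between 168 in iWAT Schwann-like cells and 349 in iBAT adipocyte-like cells. The iWAT and iBAT Schwann-like intervals (131 to 212 and 172 to 194) overlap and lie below those of every other class. Ccng1 showed another order. It was highest in stromal-like cells, at 432 in iWAT and 451 in iBAT, followed by iWAT epithelial-like cells at 402 and iBAT adipocyte-like cells at 388, and was lowest in immune-like cells, at 162 and 186, and in iWAT Schwann-like cells, at 168. Trp53inp1 stood at 26.3 and 28.0 in stromal-like cells and reached 85.4 (82.8 to 88.1) in iWAT epithelial-like cells. Its lowest levels were those of immune-like cells, 11.2 (6.51 to 17.9) and 12.9 (9.65 to 16.9).

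Cdkn1b, the p27 gene, varied least among the inhibitors, from 43.5 CPM in iBAT immune-like cells to 135 in iWAT Schwann-like cells, with 87.0 and 86.7 in stromal-like cells. Cdkn2a stood at 34.3 and 29.9 in stromal-like cells, 40.3 in iWAT epithelial-like and 36.5 in iBAT Schwann-like cells. The endothelial-like, immune-like and adipocyte-like cells of iBAT held between 4.31 and 7.51, and their intervals overlap. At a fixed 10000 UMIs per cell, 22.5% of iWAT (21.9 to 23.1) and 19.6% of iBAT stromal-like cells (19.1 to 20.1) had a Cdkn2a UMI, against 3.35% of iBAT immune-like cells (1.24 to 7.15). Without thinning the shares were 32.2%, 37.9% and 8.38%, at median depths of 17302, 27639 and 21665 UMIs. The iBAT immune-like cells also carried stromal markers, at a summed 1211 CPM against 13749 in stromal-like cells, and how much of their Cdkn2a is RNA from other cells was not tested. Cdkn2b, the p15 gene, was highest in iWAT epithelial-like cells, at 60.8 (58.6 to 63.1), against 24.3 in the stromal-like cells of that library and 11.7 in those of iBAT. The p18 gene Cdkn2c stood at 19.1 and 31.1 in stromal-like cells, at 71.8 (65.2 to 78.8) in iBAT Schwann-like and at 6.24 (5.55 to 7.00) in iWAT epithelial-like cells.

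Ccnd1, the single driver of G1 among the members, stood at 119 CPM in iWAT and 407 in iBAT stromal-like cells. In iBAT adipocyte-like cells it was below the stromal-like level of that library, at 115 (103 to 128). It stood at 1974 (1843 to 2113) in iWAT Schwann-like, 2121 (2085 to 2158) in iBAT Schwann-like and 2126 (2079 to 2173) in iBAT endothelial-like cells. These last 3 intervals overlap. Against stromal-like cells of the same library, Schwann-like cells were 16.5-fold higher in iWAT and 5.21-fold in iBAT, and endothelial-like cells 5.23-fold in iBAT. Epithelial-like cells of iWAT carried 533 and immune-like cells 302 in iWAT and 701 in iBAT.

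**Figure D1:**
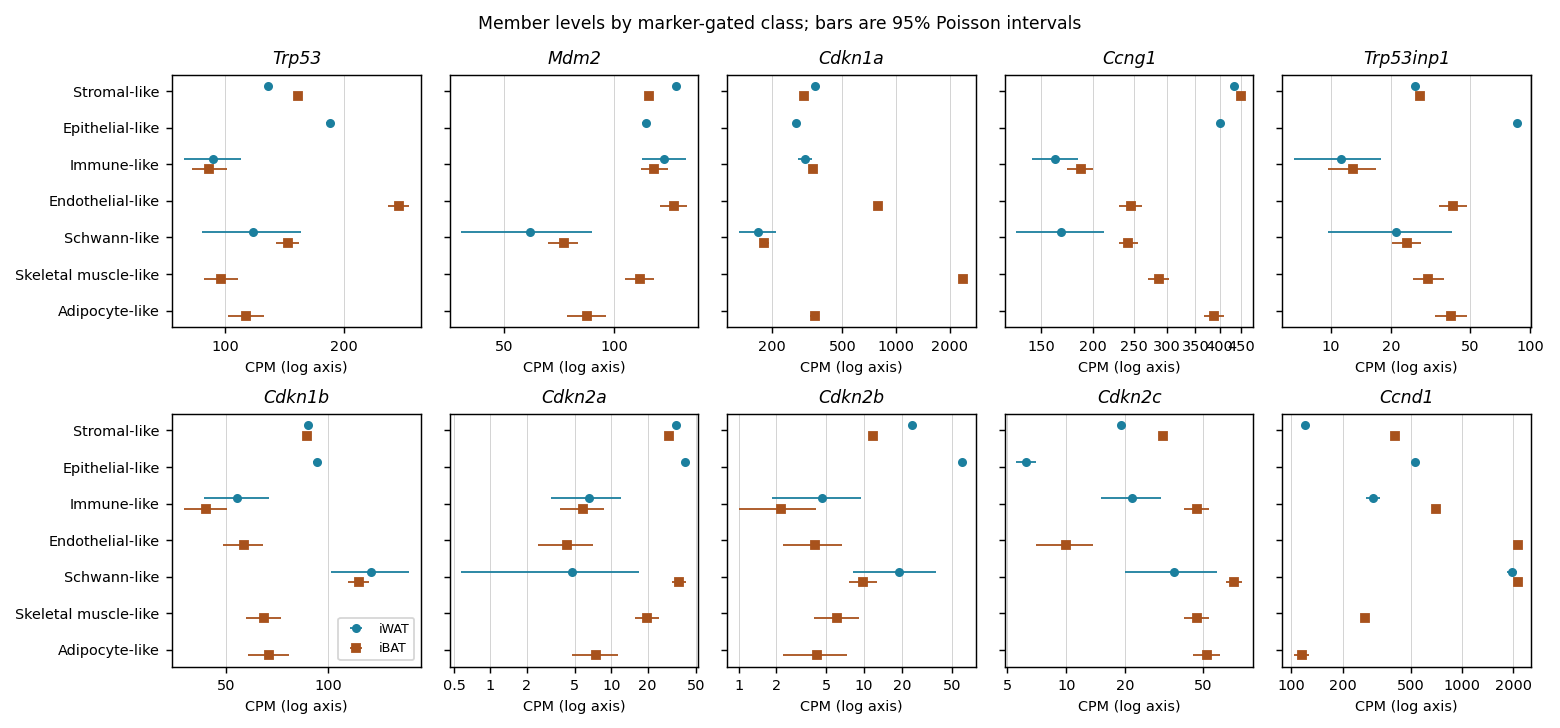
CPM (x axis, logarithmic) of each member in every marker-gated class (y axis) of the iWAT (circles) and iBAT (squares) library, with 95% Poisson intervals that cover counting error only. Cdkn1a in skeletal muscle-like cells stands at 2366, apart from every other class, and Ccnd1 in Schwann-like and endothelial-like cells lies between 1974 and 2126.

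Counted against the stromal-like cells of the same library, members at least 1.5-fold apart numbered 4 of 10 in iWAT epithelial-like cells, where Ccnd1, Trp53inp1 and Cdkn2b were higher and Cdkn2c lower. Among all genes of that comparison 20.4% were higher and 18.2% lower. In iBAT endothelial-like cells 3 members were higher (Ccnd1, Cdkn1a and Trp53) and 5 lower (Cdkn1b, Cdkn2a, Cdkn2b, Cdkn2c and Ccng1), against 18.4% and 20.6% of all genes. In iBAT skeletal muscle-like cells 1 was higher (Cdkn1a) and 5 were lower (Trp53, Cdkn2a, Cdkn2b, Ccng1 and Ccnd1), against 19.4% and 34.1%. Immune-like cells had 1 higher and 5 lower members in iWAT (25.2% and 29.6% of all genes) and 1 higher and 6 lower in iBAT (19.2% and 27.4%). In both, Ccnd1 was the higher member, and Cdkn1b, Cdkn2a, Cdkn2b, Ccng1 and Trp53inp1 were lower. Schwann-like cells had 3 higher and 4 lower in iWAT (29.3% and 20.7%) and 2 higher and 3 lower in iBAT (18.2% and 18%). Ccnd1 and Cdkn2c were higher, and Mdm2, Cdkn1a and Ccng1 lower, in the Schwann-like cells of both libraries. In iBAT adipocyte-like cells Cdkn2c was higher and Cdkn2a, Cdkn2b and Ccnd1 were lower, against 15.9% and 18.5% of all genes.

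Between the depots, the stromal-like cells differed most in Ccnd1. It was 3.41-fold higher in iBAT (407 against 119 CPM, log2 ratio 1.77, interval 1.75 to 1.78). Cdkn2c was 1.63-fold higher in iBAT (31.1 against 19.1, log2 ratio 0.71) and Cdkn2b 2.08-fold lower (11.7 against 24.3, log2 ratio -1.06). Thus 2 members were at least 1.5-fold higher in iBAT and 1 in iWAT, where 9.4% and 8.28% of the 8951 genes past a filter of 10 CPM were (17.7% either way). The other 7 members lay within 1.5-fold. Trp53 had a log2 ratio of 0.25 and Mdm2 of -0.25, while Cdkn1a and Cdkn2a both had -0.20. Ccng1 (0.06), Trp53inp1 (0.09) and Cdkn1b (-0.01) lay closest to 0, and the median of all genes was 0.07.

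The depots were also compared within Pdgfra-positive cells of like cycling state. The counts of every cell were reduced by random thinning to 10000 UMIs, which left out 5588 kept iWAT cells and 0 iBAT cells, and the summed UMIs of Mki67, Top2a, Cdk1 and Ccnb1, genes of S phase to mitosis, were taken as its cycling UMIs. With 10 or more of these were 21.2% of iWAT and 27.3% of iBAT stromal-like cells. Pdgfra-positive were 12065 of the 24156 kept iWAT cells at this depth and 22383 of the 28215 iBAT cells, an unequal share by depot. Among the Pdgfra-positive cells, 94.4% in iWAT and 92.0% in iBAT were also stromal-like. In cells with 0 cycling UMIs, Ccnd1 had a log2 ratio of 1.69, Cdkn2b of -0.84 and Cdkn2c of 0.40 (iBAT over iWAT). In cells with 10 or more the values were 1.91, -1.09 and 0.67. Cdkn2c was therefore under 1.5-fold in the first set (1.32-fold) and above it in the second (1.59-fold), and Ccnd1 was over 3-fold higher in both. Cdkn2a had 0.15 (0.04 to 0.25) in cells with 0 cycling UMIs and 0.29 (0.14 to 0.44) in those with 10 or more. Over all 12065 iWAT and 22383 iBAT Pdgfra-positive cells, whatever their cycling UMIs, its value was already 0.12 (0.06 to 0.18), so its sign differed from that of the stromal-like total (-0.20, and -0.14 after thinning) without any grouping by cycling. Cdkn1a and Mdm2 were lower in iBAT among cells with 0 cycling UMIs (-0.26 and -0.28) and were level among those with 10 or more (0.03, interval -0.01 to 0.07, and 0.02, interval -0.03 to 0.08). At this threshold 11.1% and 8.64% of all genes were higher in iBAT and iWAT in the first set and 7.67% and 9.09% in the second.

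**Figure D2:**
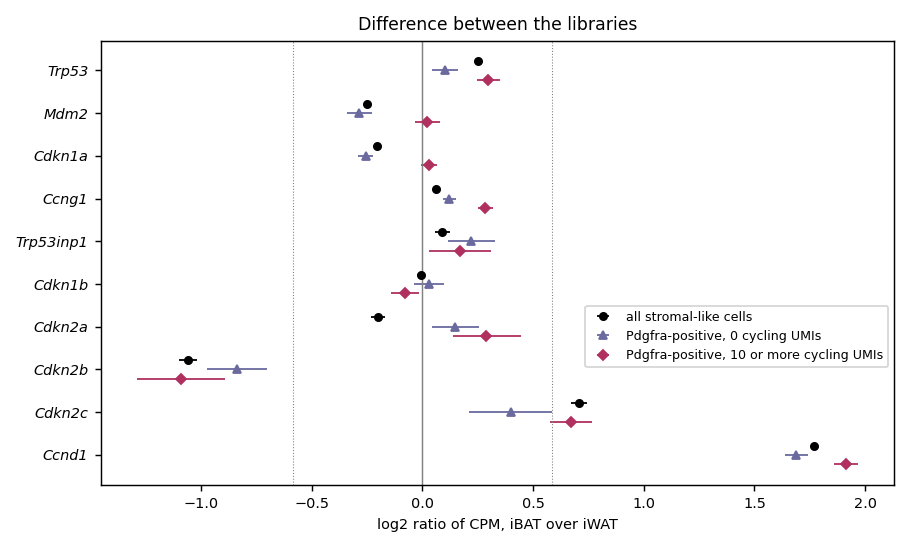
Log2 ratio of CPM, iBAT over iWAT (x axis), of each member in all stromal-like cells and in Pdgfra-positive cells with 0 and with 10 or more cycling UMIs, with 95% counting intervals and dotted lines at 1.5-fold. Ccnd1 lies between 1.69 and 1.91 in the 3 sets of cells and Cdkn2b between -1.09 and -0.84, while Cdkn2a lies at -0.20 in the first set and at 0.15 and 0.29 in the others, a change of sign also seen without grouping by cycling.

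In the small classes found in both libraries, Ccnd1 was 2.32-fold higher in iBAT immune-like cells and 1.07-fold higher in iBAT Schwann-like cells. Cdkn2c was higher in iBAT in both, 2.14-fold in immune-like and 2.03-fold in Schwann-like cells, though the iWAT counts behind these ratios were only 33 and 15 UMIs.

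Next, cells with 10 or more cycling UMIs, called cycling below, were set against cells with 0. Of 12065 Pdgfra-positive iWAT cells 3215 had 0 and 2651 had 10 or more cycling UMIs, and of 22383 iBAT cells 5676 and 5991. Median raw depth was 17664 against 19576 UMIs in iWAT and 26245 against 30535 in iBAT, before thinning made them equal. A count of 0 over these 4 genes does not mark a cell as resting, and 2386 of the 3215 iWAT and 3951 of the 5676 iBAT cells also had at most 2 UMIs of the S-phase genes described below. The INK4 genes split. Cdkn2c was 4.11-fold higher in cycling iWAT cells (42.7 against 10.4 CPM, log2 ratio 2.04, interval 1.86 to 2.22) and 4.96-fold higher in cycling iBAT cells (67.9 against 13.7, log2 ratio 2.31, 2.20 to 2.42). Cdkn2a was 1.93-fold lower in iWAT (17.8 against 34.5, log2 ratio -0.95) and 1.75-fold lower in iBAT (21.8 against 38.2, -0.81), and Cdkn2b 1.79-fold lower (15.5 against 27.7, -0.84) and 2.13-fold lower (7.26 against 15.5, -1.09).

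By cell, 90.4% of iWAT cells without cycling UMIs held no Cdkn2c UMI and 67.0% of those with 10 or more, and in iBAT 88.0% and 53.7%. For Cdkn2a the shares with no UMI were 77.2% and 84.6% in iWAT and 78.4% and 83.0% in iBAT. The Cdkn2a counts were uneven, with up to 17 UMIs in an iBAT cell of the set with 0 cycling UMIs and up to 6 in the cycling set.

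The p53 gene and its targets did not follow 1 direction. Trp53 was higher in cycling cells, 1.31-fold in iWAT (151 against 116 CPM) and 1.501-fold in iBAT (186 against 124). Mdm2 differed by 1.06-fold in iWAT and 1.31-fold in iBAT. Trp53inp1 was lower in cycling cells, by 1.496-fold in iWAT (21.9 against 32.8, log2 ratio -0.58) and 1.55-fold in iBAT (24.6 against 38.2, -0.63). Ccng1 was also lower, with log2 ratios of -0.34 and -0.18. Cdkn1a, in contrast, was nearly level, at 345 in cycling against 372 in iWAT cells with 0 cycling UMIs and 353 against 312 in iBAT, with log2 ratios of opposite sign (-0.11 and 0.18). Its share of cells at 0 was 17.2% against 13.9% in iWAT and 15.01% against 16.9% in iBAT. Cdkn1b was higher in cycling cells, 1.36-fold in iWAT and 1.26-fold in iBAT, and Ccnd1 differed by 1.05-fold and 1.23-fold.

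Thus 1 member (Cdkn2c) was at least 1.5-fold higher and 2 (Cdkn2a and Cdkn2b) were lower in cycling cells of both libraries, against 8.38% and 1.6% of the 8511 genes compared in both (9.98% either way). In iWAT alone the counts were 1 and 2, where 9.37% of 8887 genes were higher and 2.66% lower (12% either way), with Trp53inp1 just inside the limit. It passed the limit in both libraries, beside Cdkn2a and Cdkn2b, under 5 of the alternative settings, with iWAT log2 ratios from -1.02 to -0.60. In iBAT alone they were 2 and 3, where 10% of 8984 were higher and 6.12% lower (16.1% either way), with Trp53 just past the limit and Trp53inp1 as the third lower member.

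**Figure D3:**
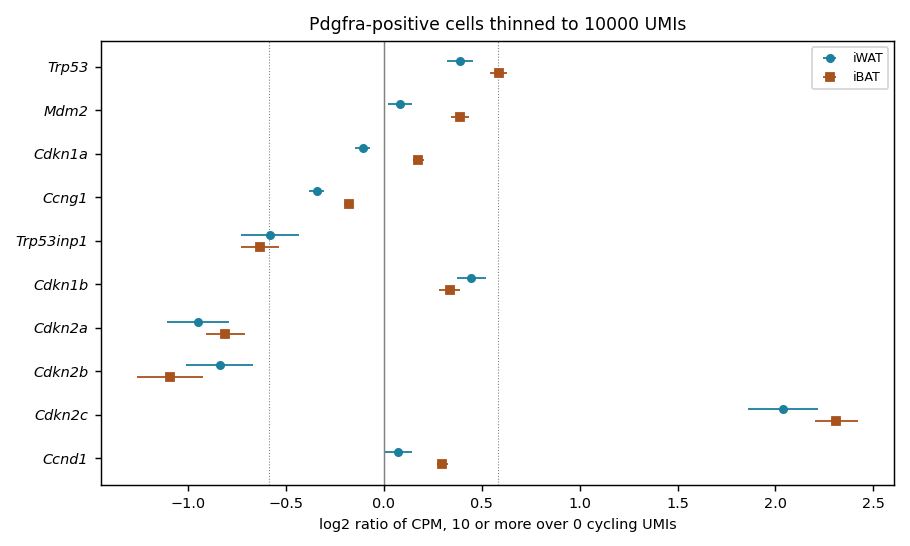
Log2 ratio of CPM in Pdgfra-positive cells with 10 or more over those with 0 cycling UMIs (x axis) for each member, iWAT as circles and iBAT as squares, with 95% counting intervals and dotted lines at 1.5-fold. Cdkn2c lies at 2.04 and 2.31, Cdkn2a and Cdkn2b between -1.09 and -0.81, and Cdkn1a on either side of 0.

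The full range of cycling UMIs showed that several members did not move steadily. Cdkn1a followed a dip and a return: from 372 CPM in iWAT cells with 0 cycling UMIs it went to 288 with 1 to 3, 278 with 4 to 9, 366 with 10 to 19 and 294 with 20 or more. In iBAT the same bins held 312, 264, 246, 357 and 347. The lowest level lay at 4 to 9 cycling UMIs in both libraries, though in iWAT its interval (271 to 284) overlaps those of 1 to 3 (283 to 294) and of 20 or more (282 to 306). Mdm2 peaked at 10 to 19 cycling UMIs, at 157 in iWAT and 156 in iBAT, and Ccnd1 at 4 to 9, at 135 and 499. Cdkn2c was higher in each successive bin, from 10.4 to 53.9 in iWAT and from 13.7 to 89.2 in iBAT. Cdkn1b lay between 79.6 and 89.8 up to 9 cycling UMIs and reached 130 and 133 at 20 or more, against 85.8 and 87.7 at 0. Most of the difference in Cdkn2a and Cdkn2b lay between 0 and 4 to 9 cycling UMIs, beyond which their intervals overlap, except that Cdkn2a in iWAT went on from 23.3 to 17.9 at 10 to 19.

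**Figure D4:**
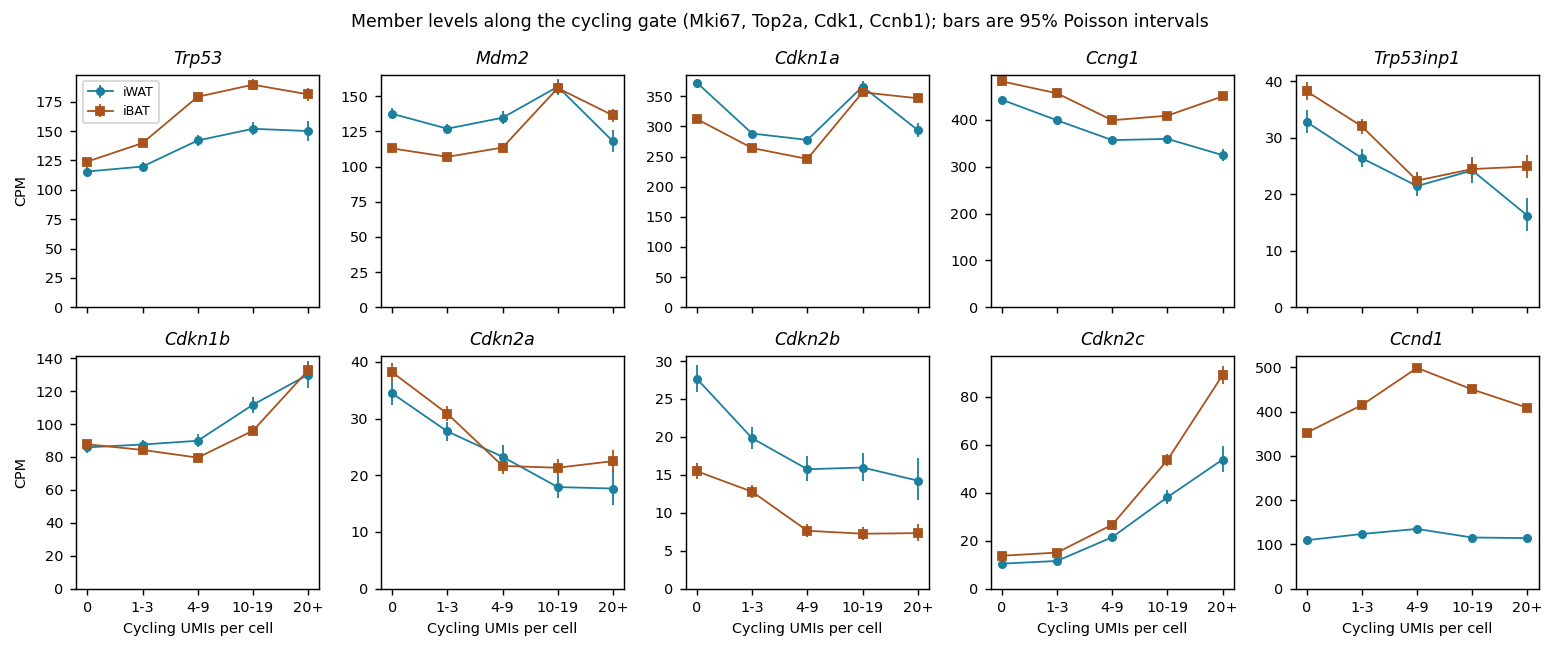
CPM (y axis) of each member in Pdgfra-positive cells binned by cycling UMIs (x axis) at 10000 UMIs per cell, with 95% Poisson intervals, iWAT as circles and iBAT as squares. Cdkn1a dips to 278 and 246 at 4 to 9 cycling UMIs, and Cdkn2c climbs to 53.9 and 89.2 in the last bin.

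The cycling gate is led by genes of G2 and mitosis, so cells early in DNA replication were sought with 12 S-phase genes (the Mcm2 to Mcm7 helicase genes and Slbp, Ung, Gins2, Cdc6, Cdt1 and Rrm2). Cells with 10 or more S-phase UMIs and at most 3 cycling UMIs numbered 540 in iWAT and 1245 in iBAT, and cells with at most 2 S-phase and 0 cycling UMIs 2386 and 3951. In these early cells Cdkn1a was lowest. It stood at 204 CPM in iWAT (192 to 216) and 201 in iBAT, against 395 (387 to 403) and 334 in the cells low in both. Where S-phase and cycling UMIs were both at 10 or more, Cdkn1a stood at 379 and 403. In the 1807 iWAT and 3056 iBAT cells with 10 or more cycling but under 10 S-phase UMIs, Cdkn1a stood at 330 and 305. These values lay below those of cells low in both in each library. Trp53inp1 was also lowest in early cells, at 14.1 and 12.9. It stood at 34.3 and 41.0 in cells low in both and at 23.1 and 26.5 in cells high in both. In iWAT Cdkn1a had this order, though its intervals in cells low in both (387 to 403) and high in both (366 to 392) overlap. In iBAT Cdkn1a was instead highest in cells high in both. Ccng1 stood at 283 and 341 in early cells against 457 and 496 in cells low in both.

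Ccnd1 had the opposite profile. It was highest in early cells, at 153 in iWAT and 627 in iBAT, against 98.6 and 306 in cells low in both and 128 and 414 in cells high in both. Cdkn2a in early cells stood at 14.1 and 18.4, against 38.3 and 41.5 in cells low in both. Cdkn2b stood at 8.70 and 5.22, against 30.5 and 16.9. Cells high in both had 16.1 and 20.2 for Cdkn2a and 12.0 and 6.27 for Cdkn2b. Their intervals overlap those of early cells in each library. Cdkn2c in early cells, at 20.2 and 22.01, lay between the 10.1 and 14.1 of cells low in both and the 39.7 and 64.1 of cells high in both. Ccne2, the cyclin of the G1 to S transition, stood at 69.1 and 80.0 in early cells against 3.10 and 2.25 in cells low in both. Cells high in both had 51.4 and 53.9. The sets were gated on S-phase genes, which go with the same stage, so Ccne2 is no separate support for them.

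The p53 targets went together from cell to cell. Stromal-like cells were thinned to 10000 UMIs (20340 iWAT and 24758 iBAT cells) and grouped by their Cdkn1a UMIs. From cells with 0 to cells with 10 or more Cdkn1a UMIs, Mdm2 went from 80.1 to 374 CPM in iWAT and from 76.4 to 313 in iBAT. Trp53inp1 went from 11.1 to 81.2 and from 14.8 to 90.9, and Ccng1 from 273 to 712 and from 333 to 699. All 3 were higher in each successive group of both libraries. Trp53 itself was nearly flat, at 124 and 135 in iWAT and 149 and 174 in iBAT. The top group was 6.05% of iWAT and 3.47% of iBAT stromal-like cells.

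The INK4 pair was also higher along these groups. Cdkn2a went from 19.8 to 70.2 in iWAT and from 23.2 to 45.8 in iBAT, and Cdkn2b from 15.7 to 44.1 and from 9.19 to 20.7. Cdkn1b stayed between 83.3 and 91.9 in iWAT and between 87.1 and 97.6 in iBAT. Ccnd1 was lowest in the top group, at 95.9 and 298. The share of cells with 10 or more cycling UMIs went from 20.7% to 25.8% in iWAT and from 22.4% to 45.5% in iBAT. The 4 cycling genes summed to 553 CPM with 0 Cdkn1a UMIs, 497 with 3 to 5 and 526 with 10 or more in iWAT, and to 592, 680.5 and 918 in iBAT. The r of Cdkn1a with the cycling sum was -0.05 in iWAT and 0.06 in iBAT, so in iWAT the share and the summed level went different ways. These are descriptions across cells that share a library, with no test.

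**Figure D5:**
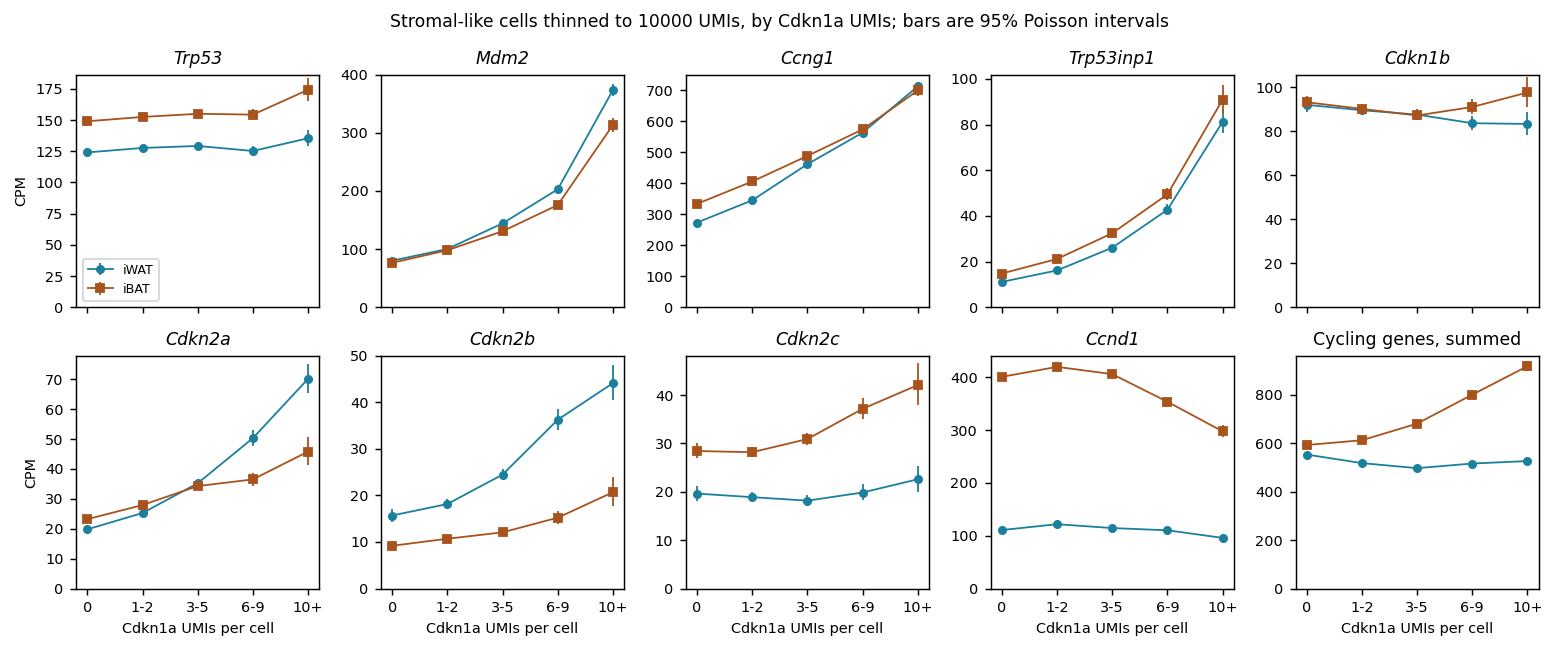
CPM (y axis) of the other 9 members and of the 4 summed cycling genes in stromal-like cells grouped by Cdkn1a UMIs at 10000 UMIs per cell (x axis), with 95% Poisson intervals, iWAT as circles and iBAT as squares. Mdm2, Ccng1 and Trp53inp1 climb in every group, to 374, 712 and 81.2 in iWAT, while Trp53 and Cdkn1b stay nearly flat.

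Ranked over the 3086 genes at 50 CPM or more in both libraries, by Pearson's r of log-transformed UMIs across the same cells, the genes most like Cdkn1a were Ccng1 (r = 0.38 in iWAT and 0.30 in iBAT), Mdm2 (0.29 and 0.25) and Bax (0.20 and 0.19), which encodes a promoter of apoptosis. Those most like Ccng1 were Cdkn1a, Rps27l (0.26 and 0.21) and Bax (0.23 and 0.20), and those most like Mdm2 were Cdkn1a, Ccng1 (0.23 and 0.15) and Ccl2 (0.13 and 0.12), a chemokine gene. Trp53 had other neighbours, namely Ptma (0.18 and 0.21), Npm1 (0.17 and 0.19) and Set (0.16 and 0.16), which encode a prothymosin, a nucleolar protein and a histone chaperone. Its r with Cdkn1a was 0.01 and 0.03. The genes most like Cdkn1b were the collagen genes Col3a1 (0.13 and 0.13), Col1a1 (0.12 and 0.12) and Col1a2 (0.12 and 0.12), all weak. Ccnd1 had the highest r of any member ranked. Its neighbours were Hmga2 (0.42 and 0.54) and Hmga1 (0.35 and 0.52), which encode chromatin proteins. Tm4sf1 (0.35 and 0.44), which encodes a membrane protein, came next. In iBAT Pdgfra-positive cells with 0 cycling UMIs, the variance of UMIs over their mean was 6.44 for Ccnd1 and 3.47 for Cdkn1a. It was 1.87 for Ccng1, 1.75 for Mdm2, 1.30 for Cdkn1b and 1.15 for Trp53. Where this value is low, counting noise makes up more of the spread and limits r. Sizes of r therefore do not compare the members. The median r over all genes was -0.02 for Cdkn1a and 0.00110 for Ccnd1 (taking the smaller of the libraries' values for each gene). Cdkn2a, Cdkn2b, Cdkn2c and Trp53inp1 lay under 50 CPM and were not ranked.

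Cdkn2a and Cdkn2b, neighbours on chromosome 4, also went together, with r = 0.24 in iWAT and 0.19 in iBAT. Cdkn2b stood at 17.3 CPM in iWAT stromal-like cells with 0 Cdkn2a UMIs, 41.2 in those with 1 or 2 and 85.4 in those with 3 or more, and at 8.84, 17.9 and 63.3 in iBAT. Only 494 iWAT cells (2.43%) and 596 iBAT cells (2.41%) had 3 or more. Of these, 5.87% in iWAT and 10.2% in iBAT had 10 or more cycling UMIs, against 22.6% and 28.0% of cells with 0 Cdkn2a UMIs. In the same cells Cdkn1a stood at 652 and 395, against 320 and 288 with 0 Cdkn2a UMIs. Cells with 1 or 2 Cdkn2a UMIs had Cdkn1a at 391 and 302, and 17.5% and 26.3% of them passed the cycling limit. In iBAT the differences from cells with 0 thus lay mostly in the 2.41% with 3 or more. Ccnd1 stood at 126 and 620 with 3 or more Cdkn2a UMIs, against 112 and 369 with 0. Cells with 3 or more Cdkn2a UMIs were thus higher in Cdkn1a than cells with 0, and fewer of them passed the cycling limit.

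Grouped by Ccnd1, stromal-like cells showed little change in the share past the cycling limit, a gate led by genes of G2 and mitosis. Of those with 0 Ccnd1 UMIs 20.5% in iWAT and 24.9% in iBAT had 10 or more cycling UMIs, and of those with 10 or more 18.8% and 28.1%. Trp53 went from 117 to 177 CPM in iWAT and from 133 to 189 in iBAT between these groups. Cdkn2a was higher in each successive group in iBAT, from 21.4 to 51.0 (r = 0.12). In iWAT it lay between 30.2 and 34.9 up to 9 Ccnd1 UMIs and at 53.7 in the last group, on 123 UMIs (r = 0.00512). Cdkn1b went down, from 94.0 to 76.9 and from 107 to 68.3. In iBAT Trp53inp1 went from 35.5 to 17.9, while in iWAT it stood at 26.1 and 26.2. The group with 10 or more was 1.13% of iWAT (229 cells) and 11.6% of iBAT stromal-like cells. With the summed S-phase genes the r of Ccnd1 was 0.15 in iWAT and 0.18 in iBAT, against 0.06 and 0.08 with the cycling sum.

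Other genes of the pathway were read from lists. Of 41 other p53 targets and regulators, 35 passed the filter in the depot comparison, of which 6 were at least 1.5-fold higher in iBAT and 6 in iWAT (median log2 ratio 0.25, against 0.07 over all genes), where 9.4% and 8.28% of all genes were. Pmaip1 (Noxa, a promoter of apoptosis) was lowest in iBAT, at 22.9 against 116 CPM (log2 ratio -2.34), followed by the kinase gene Plk2 (-1.59). Zfp365 (1.53) and Ephx1, an epoxide hydrolase gene (1.29), were highest. In the cycling comparison 33 passed in both libraries, of which 3 were higher and 0 lower in both, against 8.38% and 1.6% of all genes. Ckap2 (2.90 and 3.42) and Gtse1 (2.54 and 3.08), whose proteins act on microtubules, were furthest up. Gadd45a, a gene of growth arrest, (-0.45 and -1.01) and Trp53inp2 (-0.38 and -0.97) were lowest by the smaller size of the ratio over the 2 libraries, each past 1.5-fold in iBAT and not in iWAT. In iWAT the gene past it was Lif, which encodes a cytokine (-0.81, and -0.28 in iBAT), named after its values were seen.

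Of the 2 other CDK inhibitor genes, Cdkn2d (p19Ink4d) passed the filter and Cdkn1c did not. Cdkn2d went with Cdkn2c, with log2 ratios of 2.13 and 2.51 in cycling cells, and was level between depots (-0.04). Of 19 genes of G1 cyclins, CDKs and pocket proteins, 18 passed. Between depots 0 of these were 1.5-fold apart in either direction (17.7% of all genes were), with Ccnd2 at -0.18, Ccnd3 at -0.17, Ccna2 at 0.47 and E2f5 at 0.39, so the gap in Ccnd1 was not shared by the other D cyclins. In cycling cells of both libraries 8 were higher and 1 lower, against 8.38% and 1.6% of all genes. Ccna2 (4.96 and 5.31) and Ccne2 (2.02 and 2.35) were furthest up, Ccnd2 was lower (-0.80 and -0.99), and Cdk6 stood at -0.43 and -0.10. Ccnd1, at 0.07 and 0.30, thus had neither the decrease of Ccnd2 nor the increase of Ccne2 and Ccna2.

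Of 12 secreted and structural genes used as senescence markers, 1 was higher in iBAT (Ccl2, log2 ratio 1.37) and 4 were higher in iWAT, with Il6 (-1.51) and Cxcl1 (-1.25) furthest, against 9.4% and 8.28% of all genes. Hmgb2 stood at 0.44. In cycling cells of both libraries 2 were higher, the chromatin gene Hmgb2 (3.79 and 3.66) and the lamin gene Lmnb1 (2.01 and 2.27), and 1 was lower, Igfbp3 (-0.70 and -0.90), against 8.38% and 1.6% of all genes. Igfbp7 stood at -0.38 and -0.44. The list was not split by whether a gene marks senescence by a gain or by a loss. Its counts therefore give no direction of senescence.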

How the data were processed

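The deposited values are raw UMI counts, given for every gene and cell without normalization. Per the labels, the authors made BD Rhapsody whole-transcriptome libraries with sample tags for the treatments, and the methods name a commercial cloud pipeline (version not given in the sources used here). The submitters' processing notes name mm39 and Seurat 5.0.0. The files held 0 tag features. The 10 members, the gene lists and the markers were chosen with earlier results of these data known.

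Counts were handled in Python 3.11.15 with numpy 2.4.6, scipy 1.17.1 and pandas 2.3.3, after the ratio routine had been tested on simulated data. Classes were gated on cells thinned to 5000 UMIs, by a rule set on these data. A stromal-like cell had at least 4 of 10 stromal markers and at most 2 of any other class. Any other class needed at least 4 of its own, at most 2 of each further class and, except for adipocyte and mural cells, at most 4 stromal markers. Classes under 40 cells were not used, and 1903 iWAT and 2383 iBAT cells stayed unassigned. Pdgfra-positive cells had at least 1 Pdgfra UMI after thinning to 10000. Scrublet (scanpy 1.11.5, assumed rate 0.08) called 2 iWAT and 1120 iBAT cells doublets. Since the first number is too low for a working call, doublets were kept, and alternatives left out the called cells or the 8% with the highest scores.

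Levels are UMIs summed over the cells of a class and scaled to CPM, with exact Poisson intervals. Ratios carry exact conditional binomial intervals and shares Clopper-Pearson ones. Genes at 10 CPM or more in at least 1 side of a comparison entered it, and 1.5-fold marked a gene as apart. All 10 members passed this filter. Named genes were all members, the 2 genes of each list furthest in each direction (in the cycling comparison by the smaller size of the ratio over the libraries), and the 3 genes with the highest Pearson r for members at 50 CPM or more. A cycling difference was counted where both libraries passed 1.5-fold the same way.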

Additional observations from a re-analysis of the deposited data

Results flagged for a closer look

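Cdkn1a differed in direction between the libraries in the cycling comparison. Its log2 ratio of Pdgfra-positive cells with 10 or more over those with 0 cycling UMIs was -0.11 in iWAT (interval -0.15 to -0.07) and 0.18 in iBAT (0.15 to 0.21). Both are small beside the non-steady course of the gene over the cycling bins, and the difference between the libraries was not tested.

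Cdkn2a differed in direction between classes in the depot comparison. Its log2 ratio, iBAT over iWAT, was -0.20 in stromal-like cells and 2.95 in Schwann-like cells. The second value rests on 2 UMIs in 46 iWAT cells against 225 UMIs in 390 iBAT cells, a ratio of 7.72 with an interval on the log2 scale from 1.08 to 6.00, and it was not tested.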

How the results depend on the processing

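No paired analysis was possible because each depot had 1 library and the labels give no replicate numbers. At 2-fold in place of 1.5-fold, 1 member was higher in iBAT and 3 listed genes were, and 0 members and 0 listed genes were lower in cycling cells. With the filter at 50 CPM, 1 member and 3 listed genes were higher in iBAT and 0 members higher in iWAT, and 0 members were higher and 0 lower in cycling cells, with 7 listed genes higher and 1 lower. This filter removes Cdkn2a, Cdkn2b and Trp53inp1, and Cdkn2c except in the iBAT cycling comparison. The main counts were 2 members higher in iBAT and 1 in iWAT, with 7 and 10 listed genes, and 1 member higher and 2 lower in cycling cells, with 14 and 2 listed genes. Thinned to 5000 UMIs, 2 members were higher (Cdkn1b with Cdkn2c) and 5 listed genes lower in cycling cells, and with 20 or more cycling UMIs the same 2 members were higher and 4 listed genes lower. Trp53inp1 became the third member lower in both libraries with iWAT values of -0.79 at 5000 UMIs, -1.02 with 20 or more and -0.60 with 4 or more cycling UMIs, -0.61 under the median of ratios and -0.66 without the highest doublet scores. Scaling by the median of ratios, the other cell filter, both ways of leaving out doublets, 4 or more cycling UMIs, 2 or more Pdgfra UMIs and no low filter left these counts within 1.5 times.

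Of 60 alternative member values between depots 57 kept their sign, and of 200 in the cycling comparison 198 did. The exceptions were Ccng1 (-0.01 under the median of ratios), Trp53inp1 (-0.22 over all kept cells) and Cdkn1b (0.03 after thinning) between depots, and Ccnd1 (-0.07 at 5000 UMIs) and Mdm2 (-0.22 with 20 or more cycling UMIs) in iWAT cycling cells. The Ccnd1 depot value ranged from 1.39 to 1.80 and the Cdkn2c cycling values from 1.65 to 2.70. The comparisons within the stromal gate, with and without Pdgfra, the removal of the highest doublet scores and the depot values within equal cycling sets and over all Pdgfra-positive cells were chosen after the data were seen. The 46 iWAT Schwann-like cells, at a median of 8088 UMIs, limit every value of that class.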
